A study of Mus musculus with 24 samples.

Results

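The MYB transcription factors of mouse liver, Myb, Mybl1 and Mybl2, were followed through sham surgery and bile duct ligation. The 3 genes were taken by symbol from the 18820 symbols on the arrays, each from the brightest probe set by its mean over all 24 arrays, and each had 1 probe set. The family was chosen by the high Mybl1 level of ligated control liver at 48 h against sham, so every value of that contrast is given as a description with no test.

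The study asked how the kinase JNK1, encoded by Mapk8, acts in liver injured by blocked bile flow. Bile duct ligation (BDL) ties off the common bile duct, and sham mice were opened and closed. The 24 arrays, 1 per liver sample of a male mouse on a C57/BL6 background, made up 8 groups of 3. Control mice carried the floxed allele JNK1f/f without Cre and had sham surgery or ligation for 48 h or 28 d. JNK1-/- mice lacked the gene in all cells and JNK1Δhepa mice, JNK1f/f with Cre under an albumin promoter that is switched on after birth, lacked it in hepatocytes. Both mutants had ligation for 48 h or 28 d, and no mutant sham array was measured. Mice were 8 weeks old at 48 h and 12 weeks old at 28 d, so time and age cannot be told apart. JNK1-/- mice were bought, whereas the JNK1f/f line was a gift of another laboratory, so genotype and origin cannot be told apart for that mutant. Nothing but a replicate number tells the arrays of a group apart, and p-values measure the spread between these arrays.

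MYB proteins share an N-terminal DNA-binding domain of MYB repeats that reads the core AACNG. Myb encodes c-MYB, needed in blood progenitors. Mybl1 encodes A-MYB, known from male meiosis, where it turns on piRNA precursors and meiotic genes, and from germinal centre B cells. Mybl2 encodes B-MYB, found in most dividing cells, where it joins the MuvB complex and FOXM1 to turn on genes of G2 and mitosis. Mybl2 is itself repressed by E2F4 and the DREAM complex in resting cells and released by E2F as cells enter the cycle.

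Myb (gene ID 17863, probe set 10368199) lies on chr10:21124930-21160984, Mybl1 (gene ID 17864, probe set 10353010) on chr1:9667407-9700439 and Mybl2 (gene ID 17865, probe set 10478355) on chr2:163054327-163084688, all on GRCm38.p6. The position of the probes within exons or UTRs is not given in the sources used here. RefSeq promoters on the same build were found for 2 of the 3 members, Mybl2 and Myb. The 250 bases before the start used in that table are shown because both carry the E2F core GGCGGGA, in capitals, within 13 bases of the start. The Mybl2 window is chr2:163054385-163054634 on the plus strand and the Myb window is chr10:21160985-21161234 on the minus strand, each written 5′ to 3′. The Mybl2 window lies inside the span given for the gene, so the table's start is not the first base of that span.
Mybl2: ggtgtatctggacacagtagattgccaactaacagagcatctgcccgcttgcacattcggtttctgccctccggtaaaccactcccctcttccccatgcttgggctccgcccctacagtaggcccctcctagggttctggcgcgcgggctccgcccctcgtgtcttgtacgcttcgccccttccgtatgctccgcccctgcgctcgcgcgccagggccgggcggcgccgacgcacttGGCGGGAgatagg
Myb: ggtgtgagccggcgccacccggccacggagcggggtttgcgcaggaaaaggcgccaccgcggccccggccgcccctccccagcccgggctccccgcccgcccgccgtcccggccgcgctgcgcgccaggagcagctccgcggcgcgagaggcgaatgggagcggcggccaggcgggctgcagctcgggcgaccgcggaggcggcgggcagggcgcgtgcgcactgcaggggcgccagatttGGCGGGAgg
The core lies at -13 to -7 in Mybl2 and at -9 to -3 in Myb, counted back from the start. On either strand it was found in 9.753% of the 32851 promoter windows of this length. The MYB core AACNG was found at -220 to -216 and, on the other strand, at -193 to -189 of Mybl2 and not in the Myb window. It was present in 74.19% of windows, so its presence is common. The cell cycle homology region TTTGAA, found in 15.99% of windows, and the AP-1 site TGANTCA, found in 6.749%, were in neither window. A match is a run of letters, not a measured binding site.

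Values are log2 intensities made with RMA (robust multi-array average), on which a difference of 1 is a 2-fold change. RMA gives a value to every probe set, including those of genes that are not transcribed, and levels of different probe sets cannot be compared. The median of all symbols lay between 5.67 and 6.08 on each array. The 14 hepatocyte markers measured, albumin among them, were above that median on all 24 arrays. Mapk8 was 5.18 to 6.17 on the 6 JNK1-/- arrays. It was 7.37 to 7.67 on 9 of the 12 control arrays. On the 3 arrays labelled control sham 48 h it was 6.67 to 6.93, a range that holds the JNK1Δhepa arrays at 48 h (6.76 to 6.81). JNK1Δhepa at 28 d read 7.67, 6.90 and 6.97, so its replicate 1 was at the control level. Where the probes lie relative to the deleted part of Mapk8 is not given in the sources used here. The library labelled JNK1-/- BDL 48 h replicate 1, with Mapk8 at 5.33, stood apart in its response to ligation, and each Mybl1 result that rests on it is given with and without it.

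Mybl1 spanned the widest range of the 3 members, from 3.91 to 9.17 over the 24 arrays, a 38.5-fold range of intensity. Folds against sham are folds of intensity, and where the sham level is background they understate the fold of RNA. In liver labelled control sham it read 4.28, 4.27 and 4.32 at 48 h and 4.03, 4.41 and 3.91 at 28 d. Every sham value lay below the median of all symbols, where a dim probe set can be background. In ligated control liver it read 8.38, 8.52 and 8.84 at 48 h, far above all 6 sham arrays. This difference of 4.29 ± 0.63 (SE, n = 3 against 3), or 19.5-fold, belongs to the contrast that chose the family and carries no test. In the same contrast 9.43% of all symbols were called, meaning an adjusted p under 0.05, and 5.61% rose. With the sham arrays of 28 d in place of those labelled 48 h the difference was 4.47.

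Mybl1 also rose in control liver ligated for 28 d, on arrays that the choice of the family did not use. It read 6.34, 7.88 and 7.58 there, with replicate 1 lowest, and none of these 3 arrays came near the sham range of 3.91 to 4.41. The difference from sham at 28 d was 3.16 ± 0.63 (SE; 95% interval 1.85 to 4.46), an intensity 8.91-fold higher (3.60 to 22.0) with an adjusted p of 0.00102. Mybl1 was the member of the 3 that was called in this comparison, in which 23.2% of all symbols were called, 11.7% upward and 11.5% downward. Its adjusted p was 3.49e-07 when the spread was pooled without JNK1-/- BDL 48 h replicate 1. Leaving out any 1 of the 6 arrays gave differences of 2.85 to 3.62, and all were called. In whole liver RNA, fewer cells of a type and less RNA per cell cannot be told apart.

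The groups ordered by their Mybl1 mean ran from sham at 28 d (4.11 ± 0.26, SD, n = 3 throughout) and sham labelled 48 h (4.29 ± 0.03) to ligated JNK1-/- at 48 h (6.56 ± 2.15). They went on through JNK1Δhepa at 28 d (6.78 ± 0.27), control at 28 d (7.27 ± 0.82) and JNK1-/- at 28 d (7.42 ± 0.22). Control at 48 h (8.58 ± 0.23) and JNK1Δhepa at 48 h (8.69 ± 0.42) were highest. The 2 sham groups overlapped, and JNK1-/- at 48 h, from 4.08 to 7.92, overlapped them and every 28 d group. So did neighbours among the 28 d groups, and the pair at the top. The array values of ligated control and JNK1Δhepa liver at 48 h lay above every array of every 28 d group. Of the 18 ligated arrays, 17 were above the highest sham array.

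**Figure D1:**
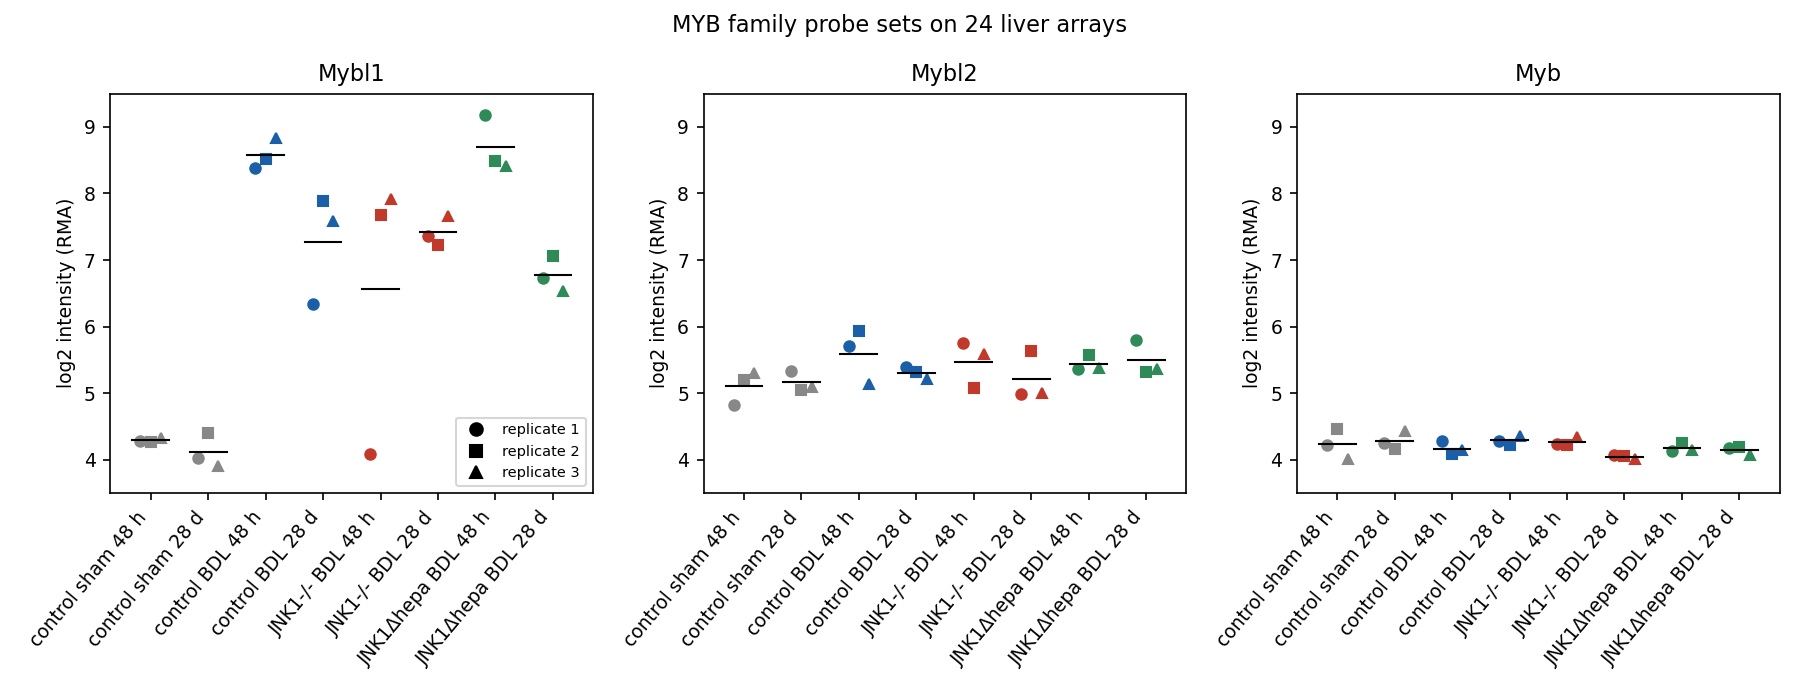
Log2 intensity (RMA) of Mybl1, Mybl2 and Myb on each of the 24 arrays by group, with a bar at the mean of 3 arrays and marker shape for the replicate number. Mybl1 was 3.91 to 4.41 on sham arrays and above 6 on every ligated array except JNK1-/- BDL 48 h replicate 1 at 4.08, whereas Mybl2 stayed between 4.82 and 5.94 and Myb between 4.01 and 4.47.

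At 48 h of ligation, Mybl1 in JNK1-/- liver read 4.08, 7.67 and 7.92. Replicate 1 was at the sham level, and the other 2 arrays were below all 3 control arrays (8.38 to 8.84). The difference from control was -2.02 ± 0.63 (SE), where 2.3% of all symbols were called. Without replicate 1 it was -0.78 ± 0.32, and without replicate 3 it was -2.70. The 3 control arrays are those whose high Mybl1 chose the family, which by itself lowers this difference, so for the members the comparisons with control at 48 h are given without a test.

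In JNK1Δhepa liver at 48 h, Mybl1 read 9.17, 8.48 and 8.41, overlapping the control arrays. The difference from the same control arrays was 0.11 ± 0.63 (SE), given without a test, and 0% of all symbols, that is 0 by limma, were called, against 607 at an unadjusted p under 0.05. JNK1-/- was below JNK1Δhepa on all arrays, by -2.13 ± 0.63 (95% interval -3.44 to -0.82; adjusted p 0.0778; 2.44% of symbols called). Without JNK1-/- replicate 1 the difference was -0.89 ± 0.32 with an adjusted p of 0.198. With arrays weighted by their quality it was -1.22 with an adjusted p of 0.0420, and it was also called without JNK1-/- replicate 2 or 3 (lowest value -2.81, adjusted p 0.0256).

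The array JNK1-/- BDL 48 h replicate 1 was followed further across the genes of the acute response. Each symbol called in ligated control liver at 48 h with a 2-fold change or more, 433 in all, was placed on a scale from 0, the mean of sham labelled 48 h, to 1, the mean of ligated control liver at 48 h. The median position was 0.50 on replicate 1, 0.94 on replicate 2 and 0.84 on replicate 3 of JNK1-/- liver. Mybl1 itself was at -0.05, 0.79 and 0.85. Of the 313 genes of this set that rose in control liver, 65 (20.8%) were at or below 0 on replicate 1, and 51 were lower than Mybl1. On replicates 2 and 3 the counts at or below 0 were 4 and 8. Replicate 1 thus lay midway between sham and ligated control over the set, with Mybl1 at the sham level. Neutrophil markers, a mean over 9 genes, stood 2.31 above the sham mean on that array, against 1.64 and 1.32 on replicates 2 and 3. The part of neutrophils in the Mybl1 reading was not tested. Over the 3 JNK1-/- arrays at 48 h the SD of Mybl1 was the 10th largest of all symbols.

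**Figure D2:**
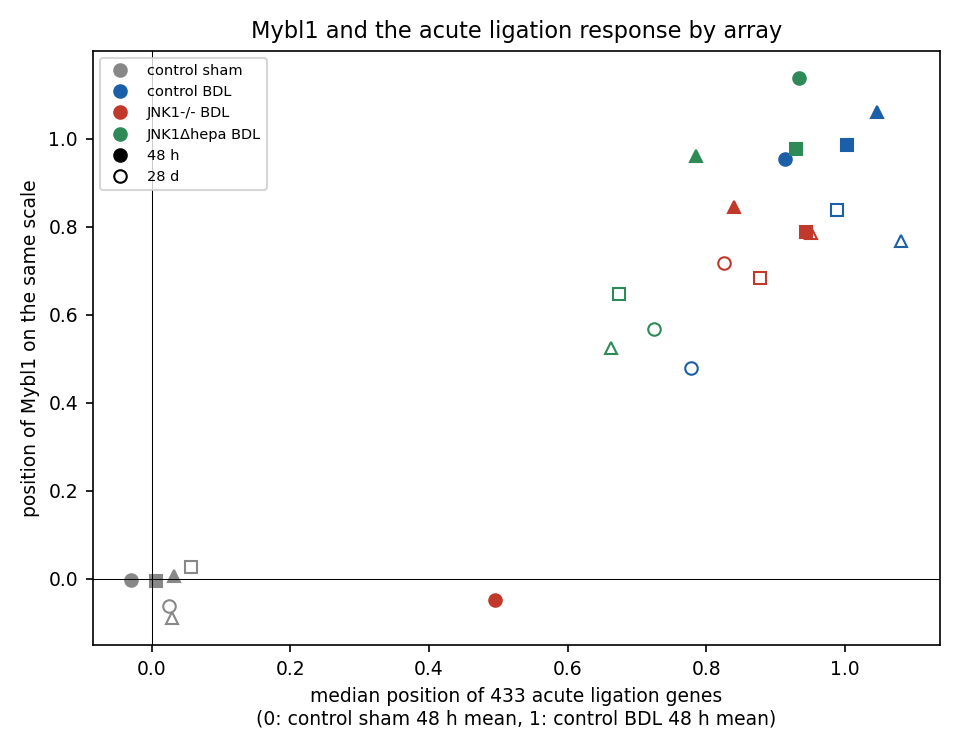
Position of Mybl1 (vertical, 0 for the mean of sham labelled 48 h and 1 for ligated control liver at 48 h) against the median position of 433 acute ligation genes (horizontal, same scale), 1 point per array, with marker shape for the replicate number. JNK1-/- BDL 48 h replicate 1 lies at 0.50 horizontally and -0.05 vertically, while its 2 companions lie at 0.94 and 0.84 with Mybl1 at 0.79 and 0.85.

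At 28 d of ligation neither mutant differed from control in Mybl1 by the test. JNK1-/- liver read 7.37, 7.22 and 7.66, within the control range of 6.34 to 7.88. The difference was 0.15 ± 0.63 (95% interval -1.16 to 1.45; adjusted p 0.957; 0.627% of symbols called). It turned to -0.317 without control replicate 1 and to -0.399 with arrays weighted by quality, and was 0.452 without control replicate 2. JNK1Δhepa liver read 6.73, 7.07 and 6.54, overlapping control through control replicate 1. That difference was -0.49 ± 0.63 (95% interval -1.80 to 0.81; adjusted p 0.774; 0.228% of symbols called, or 43 symbols, against 11 with the replicate number as a block). It was -0.956 without control replicate 1, -0.187 without control replicate 2 and -0.914 with array weights, with no call in any of these. All JNK1-/- arrays at 28 d were above all JNK1Δhepa arrays, by 0.64 ± 0.63 (95% interval -0.67 to 1.95), which was not called (adjusted p 0.654; 0.962% of symbols called). The adjusted p of that difference was 0.236 with the spread pooled without JNK1-/- BDL 48 h replicate 1. With all arrays the intervals leave room for differences of over 2-fold in either direction between each mutant and control, apart from JNK1Δhepa above control. With the spread pooled without JNK1-/- BDL 48 h replicate 1, the interval against control was -0.45 to 0.75 for JNK1-/- (adjusted p 0.881). For JNK1Δhepa it was -1.09 to 0.11 (adjusted p 0.414). Those narrower intervals leave room for over 2-fold in JNK1Δhepa below control alone.

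Between 48 h and 28 d of ligation Mybl1 fell in JNK1Δhepa liver, and every array at 28 d (6.54 to 7.07) was below every array at 48 h (8.41 to 9.17). The change was -1.91 ± 0.63 (SE; 95% interval -3.22 to -0.61), a 3.77-fold lower level with an adjusted p of 0.0394, among 18% of symbols called and 8.67% that fell. The call was lost when any 1 of the 6 JNK1Δhepa arrays was left out (differences of -2.06 to -1.67, adjusted p 0.0623 to 0.139). With the spread pooled without JNK1-/- BDL 48 h replicate 1 the adjusted p was 0.000227. In control liver the 28 d arrays (6.34 to 7.88) were also all below the 48 h arrays (8.38 to 8.84), by 1.31 (0.85 without control BDL 28 d replicate 1), which is given without a test because it uses the arrays of the choosing contrast. There 10.4% of symbols were called. In JNK1-/- liver the change was 0.86 ± 0.63 (95% interval -0.45 to 2.16; adjusted p 0.527; 2.84% of symbols called) with all arrays and -0.38 ± 0.32 (adjusted p 0.595) without replicate 1 of 48 h.

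Whether the change with time differed between the mutants was tested as an interaction, added after the data were seen. The change in JNK1-/- minus that in JNK1Δhepa liver was 2.77 ± 0.88 (SE; adjusted p 0.0872), and 1.53 ± 0.43 (adjusted p 0.0760) without JNK1-/- BDL 48 h replicate 1. Neither reached the threshold, so the fall in JNK1Δhepa liver is not shown to differ from the change in JNK1-/- liver. Against control, whose 48 h arrays chose the family, no test was made. The change in JNK1Δhepa minus that in control liver was -0.60 ± 0.88, and that in JNK1-/- minus control was 2.17 ± 0.88, or 0.93 ± 0.43 without that array.

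**Figure D3:**
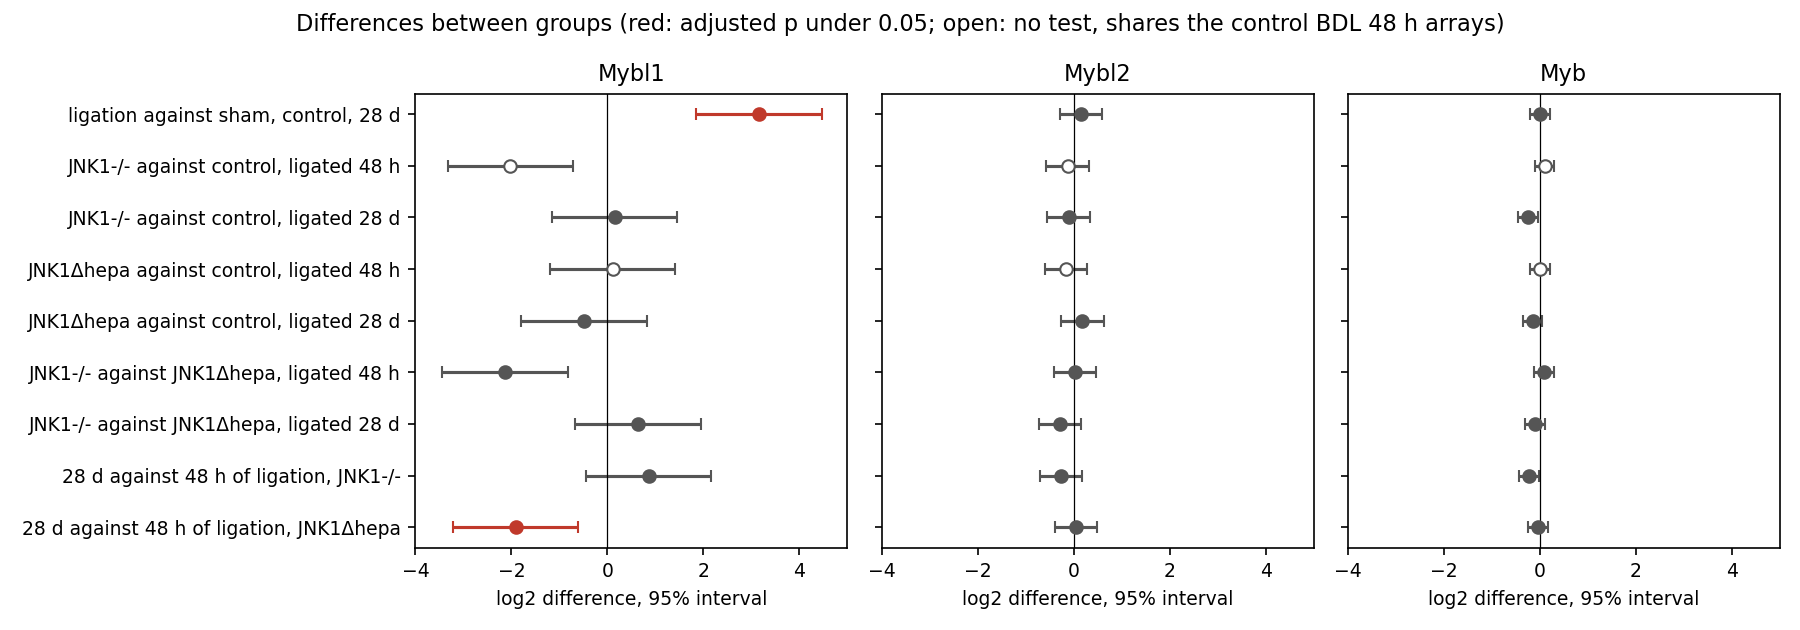
Log2 difference between group means (horizontal) for Mybl1, Mybl2 and Myb, with 95% intervals from limma over 3 arrays a group, calls in red, and open points for comparisons with control at 48 h, which carry no test. Mybl1 was called in 2 comparisons, ligation against sham at 28 d (3.16) and 28 d against 48 h in JNK1Δhepa liver (-1.91), and Mybl2 and Myb were called in 0 of 7 tested.

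Mybl2, the family member of dividing cells, varied less than Mybl1. Over all 24 arrays it ran from 4.82 to 5.94, a 2.16-fold range. On 3 arrays, all ligated, it was above the median of all symbols, and the rest were below it, where folds of intensity are compressed. Of the 18 ligated arrays, 11 were above the highest sham array. Sham liver labelled 48 h read 4.82, 5.20 and 5.31, and sham liver at 28 d read 5.33, 5.05 and 5.10. Control liver ligated for 48 h read 5.71, 5.94 and 5.14. Replicate 3 was thus within the sham range and the other 2 arrays above it, and the mean was 0.49 ± 0.21 (SE) higher than sham labelled 48 h, or 1.40-fold, with no test. It was 0.72 without replicate 3 of ligated control, 0.32 without its replicate 2 and 0.34 without sham replicate 1. At 28 d control liver read 5.40, 5.31 and 5.22, and the difference from sham was 0.15 ± 0.21 (95% interval -0.29 to 0.59; adjusted p 0.667). In JNK1-/- liver Mybl2 was 5.75, 5.07 and 5.59 at 48 h and 4.99, 5.63 and 5.0 at 28 d. In JNK1Δhepa liver it was 5.37, 5.57 and 5.37 at 48 h and 5.80, 5.32 and 5.36 at 28 d. In each mutant the ranges overlapped those of control at the same time. The 7 tested differences of Mybl2 lay between -0.29 and 0.18, and 0 of 7 were called by limma or at an unadjusted p under 0.05. Unlike Mybl1, Mybl2 was at 5.75 on JNK1-/- BDL 48 h replicate 1, above every sham array.

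Myb, the blood progenitor member, stayed at the level of a dim probe set, below the median of all symbols on all 24 arrays. It ran from 4.01 to 4.47, a 1.37-fold range, and 0 of the 18 ligated arrays exceeded the highest sham array. Sham liver read 4.23, 4.47 and 4.01 when labelled 48 h and 4.26, 4.17 and 4.43 at 28 d. Ligated control liver read 4.28, 4.09 and 4.14 at 48 h and 4.29, 4.23 and 4.36 at 28 d, inside the sham range. The difference at 28 d was 0.01 ± 0.10 (95% interval -0.20 to 0.21; adjusted p 0.972). JNK1-/- liver read 4.24, 4.23 and 4.35 at 48 h and 4.08, 4.05 and 4.01 at 28 d. The 3 JNK1-/- arrays at 28 d were below the 3 ligated controls, by -0.24 ± 0.10 (95% interval -0.45 to -0.04), and below JNK1-/- at 48 h by -0.22 ± 0.10. These had unadjusted p of 0.0212 and 0.0344, and neither was called (adjusted p 0.299 and 0.249). JNK1Δhepa liver read 4.12, 4.26 and 4.15 at 48 h and 4.17, 4.19 and 4.07 at 28 d. Its arrays at 28 d were all below the ligated controls of that time, by -0.15 ± 0.10 (adjusted p 0.511). Of the 7 tested differences of Myb, 0 were called by limma and 2 had an unadjusted p under 0.05.

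The members did not move together over the arrays. Over 24 arrays Pearson's r was 0.27 between Mybl1 and Mybl2, -0.28 between Myb and Mybl1 and -0.04 between Myb and Mybl2. Within the 18 ligated arrays, which leaves out the contrast with sham, the values were -0.18, -0.09 and 0.18. These describe arrays that share groups and are no test.

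Genes that B-MYB, MuvB and FOXM1 act on in G2 and mitosis were followed as the readout of Mybl2. The list holds 30 genes, of which 25 were measured with 1 symbol, and Foxm1 itself was not among them. In control liver at 48 h of ligation 9 of the 25 rose and 0 fell, with a median difference of 0.82, where 5.61% of all symbols rose and the median of all symbols was -0.03. Bub1, a kinase of the spindle checkpoint, rose by 1.11 ± 0.28 (SE; adjusted p 0.0136), and Nek2, a centrosome kinase, by 0.70 ± 0.19. Leaving out 1 array left 0 to 15 called, and each of the 6 arrays moved the count by over 1.5 times. The lowest counts came without ligated control replicate 1 and the highest without ligated control replicate 3. With the spread pooled without JNK1-/- BDL 48 h replicate 1, 15 rose. At 28 d 0 of 25 were called in either direction, with a median of 0.15, where 23.2% of all symbols were called.

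Most of the list fell between 48 h and 28 d of ligation in JNK1Δhepa liver, where Mybl1 fell and Mybl2 differed by 0.06. There 24 of 25 fell, with a median of -1.38, against 8.67% of all symbols and a median of all symbols of 0.01. Plk1, the polo-like kinase of mitosis, fell by 2.03 ± 0.29 (adjusted p 0.000182), and Cdk1, the kinase of mitotic entry, fell by 2.04 ± 0.31 (adjusted p 0.000340). Leaving out 1 array kept the count between 21 and 23, and with dim symbols left out it was 3. That filter also takes dim genes of the list out of the count, so the 3 are not out of 25. The same holds for the other counts with dim symbols left out. Of the 25 genes, 0 were above the median of all symbols on every array and 11 were below it on every array. In control liver 12 of 25 fell over the same interval, with a median of -0.83, against 5.31% of all symbols. That count was 2 without control BDL 28 d replicate 1 or control BDL 48 h replicate 1. It was 3 without control BDL 48 h replicate 2, at most 18 without any other array, and 0 with dim symbols left out. In JNK1-/- liver 0 of 25 fell with all arrays and 10 without replicate 1 of 48 h. These comparisons of time share the 48 h arrays with those above.

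JNK1-/- liver at 48 h had lower values of most of these genes than JNK1Δhepa liver, with 25 of 25 differences below 0 and a median of -0.73. There 4 fell, against 1.24% of all symbols, among them Aurka, the mitotic kinase Aurora A, by 0.89 ± 0.18 (adjusted p 0.0115) and Cdc20, an activator of the anaphase-promoting complex, by 1.07 ± 0.23. Without JNK1-/- replicate 1 or JNK1Δhepa replicate 1, or with dim symbols left out, the count was 0. It was 1 without JNK1-/- replicate 2 or JNK1Δhepa replicate 3. Against control at 48 h the list's median in JNK1-/- liver was -0.44 and 0 of 25 were called. By array, the mean of the list relative to sham was -0.15, 0.66 and 0.62 in JNK1-/- liver at 48 h, lowest on the replicate where Mybl1 was at the sham level. It was 1.21, 0.81 and 0.43 in control liver and 1.20, 0.91 and 1.27 in JNK1Δhepa liver at that time.

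Genes of the G1/S transition that E2F acts on, 25 measured of 30, form the group that Mybl2 itself belongs to by control. At 48 h of ligation in control liver 9 rose and 1 fell, with a median of 0.49, where 5.61% of all symbols rose. Cdc25a, the phosphatase that releases cyclin-dependent kinases, rose by 1.16 ± 0.18 (adjusted p 0.000495) and Cdt1, a licensing factor of replication, by 1.09 ± 0.20. Mcm10, a replication factor, fell by 1.12 ± 0.26. The number that rose was 4 without ligated control replicate 1, 5 without sham replicate 2 and at most 12. At 28 d 3 rose and 3 fell, a share near that of all symbols (11.7% and 11.5%), among them E2f8, a repressor of the E2F family, which fell by 2.44 ± 0.33, and Ccne1, cyclin E1, which rose by 0.84 ± 0.27. The number that rose was 0 without sham 28 d replicate 1, 1 without sham 28 d replicate 3 and at most 2 without any other array. In JNK1-/- liver at 48 h 2 fell against control (E2f8 and Mcm7), where 1.11% of all symbols fell, and each array left out moved that count, to 0 or 1 or, without control replicate 3, to 5. From 48 h to 28 d 13 fell in JNK1Δhepa liver (6 without its 48 h replicate 3, 8 without its 28 d replicate 1, at most 11; 8.67% of all symbols fell) and 10 fell in control (3 without its replicate 1 of either time, 16 without its 48 h replicate 3; 5.31% of all symbols fell). The E2F core seen in the Mybl2 window was also present in 8 of the 25 promoters found for this list (32%), in 5 of 24 of the G2/M list (20.83%) and in 11.03% of all 27025 genes. The homology region TTTGAA was in 9 of 24 of the G2/M list (37.5%), in 5 of 25 of this list (20%) and in 18.26% of all genes.

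**Figure D4:**
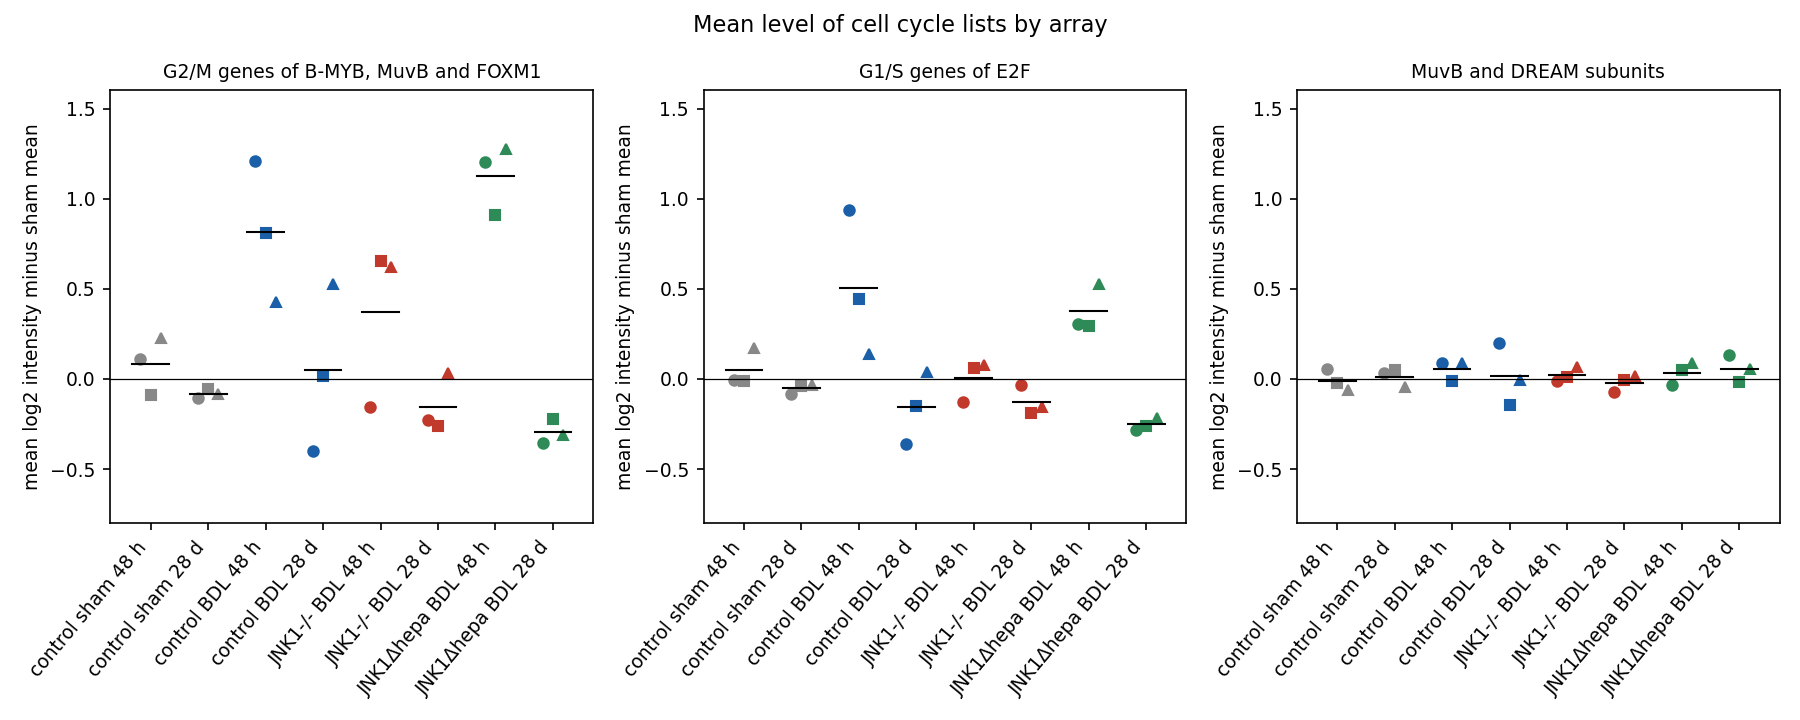
Mean log2 intensity of 25 G2/M genes, 25 G1/S genes and 12 genes of the MuvB and DREAM list on each array, minus the mean of the 6 sham arrays, by group, with a bar at the mean of 3 arrays and marker shape for the replicate number. At 48 h of ligation the G2/M mean was 0.43 to 1.21 in control and 0.91 to 1.27 in JNK1Δhepa liver, and by 28 d in JNK1Δhepa liver it was -0.36 to -0.22.

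Subunits of the MuvB and DREAM complexes were followed too, in a list that also holds Rb1 and Dyrk1a. Of the 12 genes of this list measured, 2 rose in control liver at 48 h, with a median of 0.01, where 5.61% of all symbols rose. They were Rbl1, the pocket protein p107, by 1.17 ± 0.23 and the MuvB subunit Lin9 by 0.42, and leaving out 1 array left 1 or 2. At 28 d 0 of 12 were called, where 23.2% of all symbols were. From 48 h to 28 d in JNK1Δhepa liver 3 rose and 2 fell, or 5 called of 12 where 18% of all symbols were called, with Rbl1 falling by 1.44 ± 0.23 and Tfdp2, a partner of E2F, rising by 1.06 ± 0.23. Of 18 cofactors and regulators of MYB proteins, 0 were called at 48 h, where 9.43% of all symbols were. At 28 d 0 rose and 2 fell, where 11.7% of all symbols rose and 11.5% fell, so the share that fell was near that of all symbols. The 2 were Ccnf, cyclin F, by 1.42 ± 0.24 and Parp1, a poly(ADP-ribose) polymerase, by 0.70 ± 0.19. Ccnf also fell by 0.93 ± 0.24 from 48 h to 28 d in JNK1Δhepa liver, among 6 of the 18 (3 without its 48 h replicate 2), where 8.67% of all symbols fell.

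In ligated control liver the genes that A-MYB turns on in the testis were called no more often than all symbols. Of 22 measured, 0 rose and 1 fell at 48 h, where 5.61% of all symbols rose and 3.83% fell. The 1 was the synaptonemal complex protein Sycp3, by 0.69 ± 0.15. The median difference of the 22 genes was -0.06. At 28 d 1 of 22 rose, the testis-enriched heat shock protein gene Hspa2, by 2.62 ± 0.38 (adjusted p 5.18e-05), where 11.7% of all symbols rose. Hspa2 was also higher at 28 d than at 48 h in JNK1Δhepa liver (2.31 ± 0.38), where Mybl1 was lower. Most of the list, 17 of 22, was below the median of all symbols on every array.

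With ligation in control liver, genes that c-MYB acts on in blood progenitors were called about as often as all symbols, counting either direction. Most of those called rose. Of 20 measured, 2 were called at 48 h, where 9.43% of all symbols were. Both rose, Myc by 2.06 ± 0.37 and Runx1, a factor of blood stem cells, by 0.77 ± 0.21. Between the sham groups Myc was 2.52 ± 0.37 higher at 28 d than in sham labelled 48 h (limma, adjusted p 0.00727), where 0.133% of all symbols were called. That exceeds its rise with ligation at 48 h, so mean Myc in control liver ligated for 48 h was below that of sham at 28 d. Myc was also 1.92 ± 0.37 higher at 28 d than at 48 h in ligated JNK1Δhepa liver (limma, adjusted p 0.00165). It was not called over that interval in ligated control or JNK1-/- liver. The part of time, age and the sham arrays in the Myc values was not tested. At 28 d 5 rose and 1 fell, where 23.2% of all symbols were called, 11.7% upward and 11.5% downward. Runx1 rose by 2.03 ± 0.21 and Prtn3, the granule enzyme proteinase 3, by 2.12 ± 0.50, while Cebpa fell by 1.07 ± 0.13. The 5 were 2 without ligated replicate 3 or sham replicate 1 of that time. In JNK1-/- against control liver at 48 h 1 of the 20 rose and 1 fell, where 1.2% of all symbols rose and 1.11% fell. Kit, the stem cell factor receptor, fell by 0.90 ± 0.21 there, and Runx1 rose by 0.84 ± 0.21, with JNK1-/- replicate 1 included.

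Markers of the cells known for each MYB protein were set beside the family. B cell markers, a home of A-MYB, had 0 of 9 called at 48 h of ligation in control liver and 0 up and 3 down at 28 d, Ms4a1 (CD20) among them by 0.75 ± 0.15. Their mean relative to sham was -0.17 to 0.01 at 48 h and -0.31 to -0.20 at 28 d, and 8 of the 9 were below the median of all symbols on every array. Of 5 germinal centre markers, 1 rose and 1 fell at 48 h, and 0 rose and 1 fell at 28 d. Of 10 T cell markers 0 rose and 1 fell at 48 h, and 0 rose and 2 fell at 28 d, with 2 rising at 28 d without ligated replicate 1. Of 10 markers of NK and cytotoxic cells 0 were called at either time. Of 9 erythroid markers 0 rose at either time. Of the T cell markers 9 of 10, and of the NK and cytotoxic markers 10 of 10, were below the median of all symbols on every array, where a change is hard to see. In these comparisons 5.61% of all symbols rose and 3.83% fell at 48 h, and 11.7% rose and 11.5% fell at 28 d.

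Among markers of bile duct and inflammatory cells more rose than fell in ligated control liver, where Mybl1 was higher too. Of 13 cholangiocyte markers 4 rose and 0 fell at 48 h and 4 rose and 1 fell at 28 d, with medians of 1.22 and 0.84, beside 5.61% and 11.7% of all symbols that rose. The 1 that fell was Onecut1, a transcription factor shared with hepatocytes, by 1.65 ± 0.37. Onecut1 was 1.89 ± 0.37 higher in sham at 28 d than in sham labelled 48 h (limma, adjusted p 0.0481). That exceeds its fall, so its mean in control liver ligated for 28 d was above that of sham labelled 48 h. Krt19, a bile duct keratin, was higher by 2.10 ± 0.59 at 48 h. The cholangiocyte count at 48 h was 1 without any 1 sham array and 2 without any 1 ligated array, and at 28 d it was 7 without ligated replicate 1. Of 9 neutrophil markers 6 rose at 48 h and 7 at 28 d, with medians of 1.29 and 1.34, and of 14 macrophage markers 4 rose at 48 h and 8 at 28 d. The neutrophil count at 48 h was 3 without ligated replicate 3 or sham replicate 1. Of 12 stellate cell markers 1 rose at 48 h and 3 at 28 d (6 without ligated replicate 1). Their mean levels relative to sham at 48 h in control liver were 0.62 to 1.14 for cholangiocytes, 0.62 to 2.33 for neutrophils, 0.70 to 0.83 for macrophages and 0.14 to 0.70 for stellate cells. Sham 28 d replicate 3 had a cholangiocyte mean of 0.615, beside 0.619 on ligated control 48 h replicate 2. Mybl1 did not follow there, since that sham array had its lowest value of all 24 (3.91). In control liver ligated for 28 d the cholangiocyte mean was 0.36, 0.56 and 2.43. On JNK1-/- BDL 48 h replicate 1 the cholangiocyte mean was 0.19, below replicates 2 and 3 at 0.38 and 0.67. The macrophage mean was highest on replicate 1, at 1.10 against 0.96 and 0.64, as was the neutrophil mean, at 2.31 against 1.64 and 1.32. The stellate cell mean was 0.36 there, between 0.61 on replicate 2 and -0.48 on replicate 3. The part of these cells in the Mybl1 result was not tested.

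The 5 symbols whose pattern was most like Mybl1 over the 24 arrays were found by Pearson's r. They were D17H6S56E-5 (r = 0.97), the cytolinker gene Ppl (periplakin, 0.96), Krt18 (a keratin of simple epithelia such as hepatocytes and bile ducts, 0.96), the tubulin gene Tubb6 (0.95) and the galactosyltransferase gene B4galt5 (0.94). Within the 18 ligated arrays r was 0.87 to 0.92, and the arrays share groups, so r has no test. They were picked as alike, so their low value on JNK1-/- BDL 48 h replicate 1 is a description. Relative to sham labelled 48 h they stood at 0.61, 0.42, -0.05, -0.05 and 0.21 there, in the order given. On replicate 2 of that group the same symbols stood at 2.92, 3.05, 1.42, 1.02 and 1.61. In control liver at 28 d of ligation they were higher than sham by 9.38-fold, 4.82-fold, 2.38-fold, 3.22-fold and 2.25-fold.

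**Figure D5:**
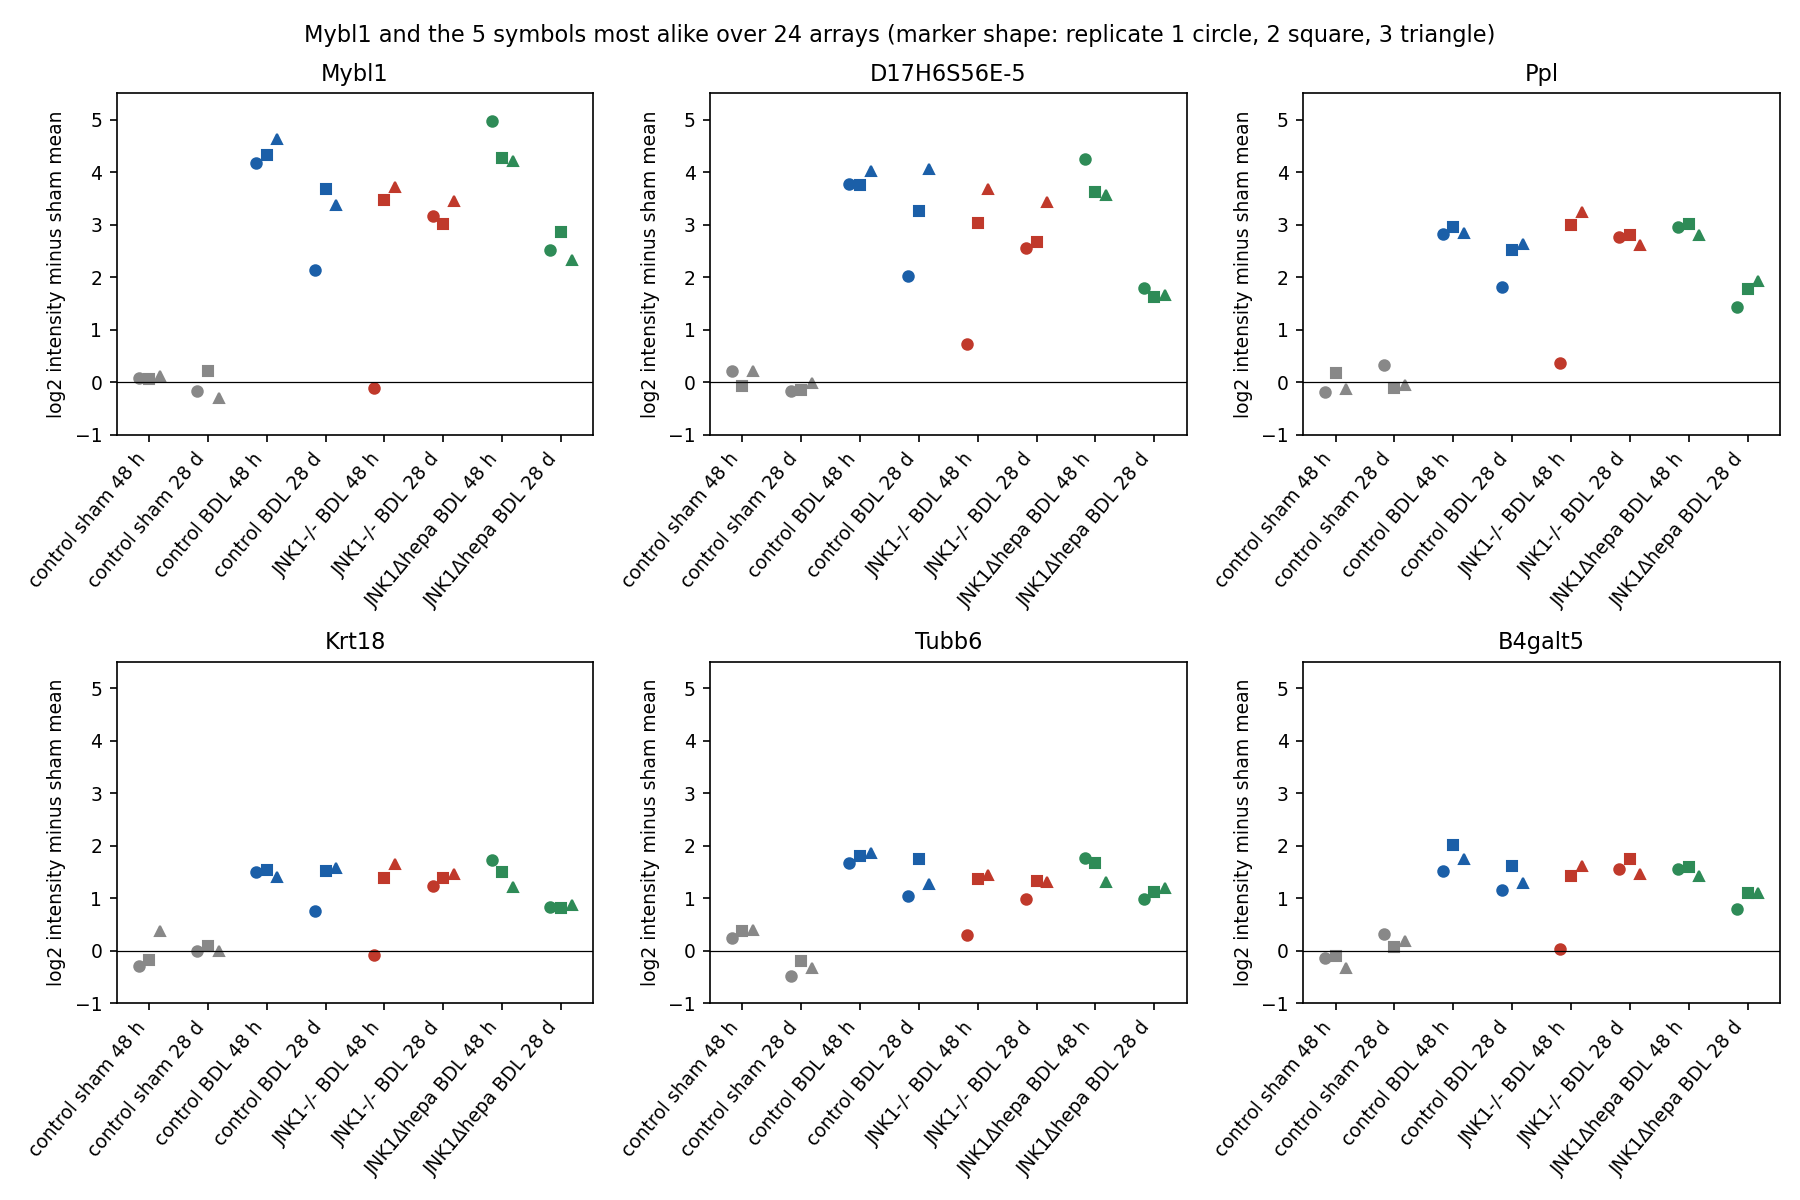
Log2 intensity minus the mean of the 6 sham arrays, by array and group, for Mybl1 and the 5 symbols with the highest Pearson's r to it over 24 arrays. In all 6 panels JNK1-/- BDL 48 h replicate 1 lies below every other ligated array, with Mybl1 near the sham mean.

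For Mybl2 and Myb the closest patterns were looser. The symbols most like Mybl2 were Ccar2 (r = 0.71), Olfr874 (0.66), Insm2 (0.65), Tsx (0.63) and Crb3 (0.63). Those most like Myb were Erich2 (0.71), Htr3a (0.69), Cyp4x1 (0.68), Vwc2 (0.65) and Rbp7 (0.65). None of these 10 was called between ligated and sham control liver at 28 d (4360 of all symbols were).

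Of the 6 nearest genes 4 were measured. Vcpip1, 18.2 kb from Mybl1, differed by -0.05 ± 0.08 at 28 d of ligation in control liver, where Mybl1 was 3.16 higher. Ift52 and Gtsf1l, 8.17 kb and 2.34 kb from Mybl2, differed by -0.01 ± 0.11 and -0.09 ± 0.10 at 28 d. Ahi1, 44.5 kb from Myb, rose at 28 d by 0.72 ± 0.22 (adjusted p 0.0198), while Myb differed by 0.01.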

How the data were processed

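Liver RNA was measured on 24 whole-transcript arrays, in 8 groups of 3. Extraction used TRIzol and RNeasy columns, the integrity number was above 8, and 100 ng entered the Ambion labelling kit, per the labels' protocols. The authors deposited 1 log2 intensity for each probe set and array, computed by RMA according to the submitters' processing notes. Its version and options: not given in the sources used here. RMA includes background correction and quantile normalization, which compress the fold change of dim probe sets.

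Of 35556 probe sets, 21218 had 1 gene symbol, 1881 several and 12457 none, and probe sets with 1 symbol were kept. The brightest by its mean over 24 arrays stood for each of 18820 symbols. Among all array pairs 0 held equal values, and r reached at most 0.993. Precision is limited by the array number, and the median SE of a difference was 0.129.

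Differences came from limma 3.58.1 in R 4.3.3, as 1 model with a mean per group, fitted to the 24 arrays together (residual degrees of freedom 16, prior 3.55). P-values were adjusted by Benjamini and Hochberg over all symbols, and an adjusted p under 0.05 was a call. There were 12 comparisons. For the members 7 were tested. Ligation against sham at 48 h chose the family, and the 4 other comparisons that use its arrays are given with no p. The code was tested on simulated data.

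The members and the 16 gene lists (227 of 253 genes measured) were chosen with earlier results of these data known. Named besides the members were up to 4 genes per list and direction with the smallest p among those called, the 5 symbols most like each member, the neighbours on each side, and Mapk8. Promoters came from RefSeq on GRCm38.p6, which had none for Mybl1 in the table used.

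Same replicate numbers were checked for pairing through the correlation of deviations from group means. In 11 of 12 comparisons not every pair was above 0.1. In JNK1Δhepa against control at 28 d the pairs reached 0.50, 0.24 and 0.16, the data being the only source of that pairing, so the blocked count stands beside that comparison. Alternatives were another normalization, array centring, a filter on dim symbols, only the arrays compared, an intensity trend, array weights, a replicate block, other sham arrays and leaving out each array. Leaving JNK1-/- BDL 48 h replicate 1 out of the pooled spread, and the interactions with time, were added after the data were seen.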

Additional observations from a re-analysis of the deposited data

How the results depend on the processing

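Of 198 alternatives other than leaving out an array, 186 left the 28 results of the members the same, 11 changed a direction or a side of the threshold and 1 moved a value. The 28 include each mutant against control at 48 h, sorted here by the same threshold although those comparisons are given above without a test. Myb in ligation against sham at 28 d reversed under quantile normalization (-0.00372), array centring (-0.0899) and array weights (-0.0438), and in JNK1Δhepa against control at 48 h under the first 2 (-0.000945 and -0.00893). Array weights, which were 0.22 and 0.29 for control BDL 28 d replicates 1 and 3 and 0.30 for JNK1-/- BDL 48 h replicate 1, turned Mybl1 in JNK1-/- against control at 28 d (-0.399) and over time in JNK1-/- liver (-0.110). They called Mybl1 in JNK1-/- against JNK1Δhepa at 48 h (-1.22). They turned Mybl2 in that comparison (-0.226) and over time in JNK1-/- (0.0536) and JNK1Δhepa liver (-0.0609). The cause was not tested. Mybl1 in ligation against sham at 48 h was 4.47 with the 28 d sham arrays. Mybl1 in ligation against sham at 28 d was called in every setting run. Leaving out 1 array at a time kept 140 of 168 values as reported. Lowest and highest values of the results that moved were, for Mybl1, -2.70 and -0.784 in JNK1-/- against control at 48 h, -0.317 and 0.452 in the same at 28 d and -2.81 and -0.894 in JNK1-/- against JNK1Δhepa at 48 h. They were -0.132 and 0.248 in JNK1Δhepa against control at 48 h, -0.380 and 1.54 over time in JNK1-/- and -2.06 and -1.67 over time in JNK1Δhepa liver. For Mybl2 they were -0.353 and 0.0756, -0.315 and 0.00780, -0.107 and 0.234, -0.388 and 0.0119 in the first 4 of these comparisons and -0.0996 and 0.145 in the last. For Myb they were -0.0517 and 0.0787 in ligation against sham at 28 d, -0.0341 and 0.0593 in JNK1Δhepa against control at 48 h and -0.0572 and 0.00868 over time in JNK1Δhepa liver. The replicate block changed no call of the members: for Mybl1 log2 difference, ligation against sham, control, 28 d, the blocked value was 3.16 (limma, adjusted p 0.00089) and for Mybl1 log2 difference, 28 d against 48 h of ligation, JNK1Δhepa, it was -1.91 (adjusted p 0.0322). In JNK1-/- against JNK1Δhepa at 28 d it moved the symbols called from 181 to 289. Array centring shifted the median of all symbols in ligation against sham at 28 d by -0.0965, and its calls went from 2199 up and 2161 down to 1660 up and 3693 down. Over time in control liver the split went from 962 and 1000 to 645 and 2165. A second probe set could not be tried, since each member has 1. With dim symbols left out, fewer were tested and dim genes of the lists dropped out of the counts. There 1 G2/M gene rose at 48 h in place of 9, and 3 fell over time in JNK1Δhepa liver in place of 24. Over the settings run other than leaving out an array, the count at 48 h was 1 to 21.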
